A study of Homo sapiens with 12 samples.

Results

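Glycolysis genes and genes that respond to low oxygen were followed in MCF10A, an immortalised line of human mammary epithelial cells. The cells had a knockdown of the transcriptional coactivators YAP and TAZ, treatment with an inhibitor of the kinases MST1 and MST2, or both. The set holds 37 genes chosen by their known function, with earlier results of these data known. They were read from the table by symbol where the entry lies on an assembled chromosome. All 37 were found among 46931 genes, and all 37 were among the 18143 genes with enough counts to test. They fall into 16 glycolytic enzymes, 6 regulators of glycolytic flux and transporters, 4 HIF subunits and oxygen sensors, and 11 HIF-responsive genes.

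Transfection used 22 nM of a control siRNA or 11 nM of siRNA sets that target YAP and TAZ. The cells were 48 h later given fresh medium with DMSO or with 5 µM XMU-MP1, an inhibitor of MST1 and MST2, and harvested after 6 h. The 4 groups are siC_DMSO (control siRNA, DMSO), siC_XMU (control siRNA, XMU-MP1), siYT_DMSO (siRNA against YAP and TAZ, DMSO) and siYT_XMU (the same siRNA, XMU-MP1). Each has 3 libraries, lettered a, b and c. All groups shared the wild-type line, transfection and a medium with horse serum, insulin, hydrocortisone and EGF. No group was grown at low oxygen per the labels, so HIF-responsive names the genes by their known induction and not by anything done here. Whether the letters are separate cultures is not stated, so p-values measure only the spread between these samples.

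Libraries held 8243351 to 67953633 counts. Library c of siYT_XMU stood apart: it was the shallowest, detected 15135 genes (17950 to 20704 elsewhere), and gave 34.96% of its counts to ribosomal RNA. The remaining 5 knockdown libraries gave 1.86 to 8.35% and the 6 of control siRNA 1.02 to 2.52%. These ranges overlapped, and the part of ribosomal RNA in the results was not tested. Calls of members that use siYT_XMU are given with and without library c. The siRNA reduced its targets: YAP1 fell by 4.39 and WWTR1, the gene of TAZ, by 2.96 on the log2 scale in DMSO. In the knockdown with XMU-MP1 the 2 targets had log2 fold changes of -4.70 and -5.43. After the knockdown both were lower with XMU-MP1 than with DMSO (-0.90 and -1.62, and without library c -0.92 and -1.32). Both passed edgeR's test there. The remaining RNA of the targets thus differed between siYT_DMSO and siYT_XMU, and its part in the results was not tested. All 11 mammary epithelial markers had counts in every library, with a summed level of 8961 to 12023 CPM (counts scaled to library size, with TMM normalisation) in control siRNA and 7491 to 24455 CPM after the knockdown. In the knockdown in DMSO 3 of the 11 rose and 4 fell by edgeR's test, beside 16.1% and 16% of all genes. With XMU-MP1 these were again 3 and 4, beside 17.7% and 18.6%. Without library c they were 3 and 3, beside 19.3% and 18.7%. Of 7 leukocyte markers 2 to 4 were at 0 in each library, of 7 fibroblast markers 0 to 4, and of 5 endothelial markers 1 to 4. The summed leukocyte markers were at 20.1 to 62.3 CPM in control siRNA, 84.7 to 155 CPM in siYT_DMSO and 71.0, 154 and 206 CPM in siYT_XMU (libraries a, b and c), mostly CD14 and CD68 except in c. The summed fibroblast markers were at 11.3 to 27.7 CPM in control siRNA, 24.2 to 70.3 CPM in siYT_DMSO and 23.5, 41.2 and 137 CPM in siYT_XMU a, b and c. The summed endothelial markers were at 0.917 to 3.82 CPM in the other groups and 1.497, 7.04 and 8.49 CPM in siYT_XMU. LYZ, from the leukocyte list, stood at 0, 5.03 and 58.6 CPM in siYT_XMU and at 0 to 0.160 CPM elsewhere. COL1A2, from the fibroblast list, stood at 0, 2.84 and 33.4 CPM against 0 to 0.0697 CPM. The part of such RNA in the results was not tested.

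Glycolysis turns glucose into pyruvate, which lactate dehydrogenase can reduce to lactate. Hexokinase, phosphofructokinase and pyruvate kinase catalyse its largely irreversible steps, and PFKFB enzymes set the level of fructose 2,6-bisphosphate, a potent activator of phosphofructokinase. Hypoxia-inducible factors (HIF) pair an oxygen-regulated alpha subunit (HIF1A or EPAS1, also called HIF-2 alpha) with ARNT. Prolyl hydroxylases of the EGLN family mark the alpha subunits for destruction when oxygen is present, so HIF is controlled largely at the protein level, which these RNA measurements do not show. Stabilised HIF binds the core sequence ACGTG or GCGTG near target genes, among which are many glycolytic enzymes, glucose and lactate transporters and, in a feedback loop, EGLN1 and EGLN3 themselves.

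The promoters of PFKFB3, BHLHE40, KDM3A, HK2 and ADM, 5 members with large fold changes that held such a core, are shown with the core in capitals. They are the 250 bases before the RefSeq start on GRCh38.p14, all on the plus strand and written 5′ to 3′, and capitals mark each ACGTG or GCGTG on either strand, which reads as CACGT or CACGC where the match is on the other strand. The positions are chr10:6144671-6144920 for PFKFB3, chr3:4979187-4979436 for BHLHE40, chr2:86441121-86441370 for KDM3A, chr2:74833877-74834126 for HK2 and chr11:10304823-10305072 for ADM.
PFKFB3: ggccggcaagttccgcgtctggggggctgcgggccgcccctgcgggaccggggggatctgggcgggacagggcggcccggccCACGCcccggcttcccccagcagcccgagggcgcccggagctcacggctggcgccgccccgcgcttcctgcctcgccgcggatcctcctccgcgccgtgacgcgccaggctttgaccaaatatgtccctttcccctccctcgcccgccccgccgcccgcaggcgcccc
BHLHE40: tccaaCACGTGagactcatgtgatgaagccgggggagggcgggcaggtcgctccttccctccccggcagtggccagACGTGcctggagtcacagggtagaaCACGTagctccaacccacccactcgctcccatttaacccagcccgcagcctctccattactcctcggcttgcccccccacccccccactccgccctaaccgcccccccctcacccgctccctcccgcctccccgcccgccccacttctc
KDM3A: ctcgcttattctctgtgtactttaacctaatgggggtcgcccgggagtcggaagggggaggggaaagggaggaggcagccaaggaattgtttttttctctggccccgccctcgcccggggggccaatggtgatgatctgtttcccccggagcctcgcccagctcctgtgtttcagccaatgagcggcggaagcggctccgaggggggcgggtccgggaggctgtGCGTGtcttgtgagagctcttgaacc
HK2: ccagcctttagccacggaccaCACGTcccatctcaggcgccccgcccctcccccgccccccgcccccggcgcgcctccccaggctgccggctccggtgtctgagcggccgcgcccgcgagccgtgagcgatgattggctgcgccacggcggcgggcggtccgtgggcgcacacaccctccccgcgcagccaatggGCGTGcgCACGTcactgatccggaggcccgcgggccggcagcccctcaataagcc
ADM: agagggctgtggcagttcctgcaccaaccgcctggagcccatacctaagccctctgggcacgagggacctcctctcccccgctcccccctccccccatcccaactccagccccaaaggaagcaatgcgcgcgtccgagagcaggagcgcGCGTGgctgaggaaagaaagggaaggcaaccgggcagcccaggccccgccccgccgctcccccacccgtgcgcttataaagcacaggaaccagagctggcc
The KDM3A start used by RefSeq here lies 724 bases downstream of the gene start in the authors' table, and that of BHLHE40 17 bases. BHLHE40 held 4 matches, with first bases at -245, -244, -174 and -149 from the start, and the first pair overlap in the palindrome CACGTG, which is also the binding sequence of bHLH repressors such as BHLHE40 itself. HK2 held 3 matches (-229, -55 and -48), and PFKFB3 (-168), KDM3A (-26) and ADM (-101) held 1 each.

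Promoter windows from 250 bases before to 50 after the start were in the table for 35 of 37 members, all but NDRG1 and SLC2A3, and 12 of these have several starts, of which the first listed was used. Of the 35, 15 starts lay within 10 bases of the gene start in the authors' table. ACGTG or GCGTG, on either strand, occurred in 26 of 35 windows (74.3%), against 48.4% of 27305 genes in the table and 60.6% of 12513 tested genes with a window. It occurred in 9 of 10 windows of HIF-responsive genes, 11 of 16 of enzymes, 3 of 5 of regulators and transporters, and 3 of 4 of HIF subunits and sensors. ACGTG alone occurred in 45.7% of member windows against 25.7% of tested genes. GGAATG, the sequence bound by TEAD factors, the DNA-binding partners of YAP and TAZ, occurred in 3 of 35 windows (8.57%) against 11.3% of tested genes. Such matches are letters in a window and not binding sites.

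In control cells, siC_DMSO, the 8 most abundant members were glycolytic enzymes. Levels between genes were compared in FPKM, which is per transcript length. GAPDH, which makes 1,3-bisphosphoglycerate, stood highest at 4565 ± 249 FPKM, followed by ENO1 (enolase) at 1195 ± 90.5, PKM (pyruvate kinase) at 1016 ± 99.95, ALDOA (aldolase) at 959 ± 86.5 and LDHA (lactate dehydrogenase) at 726 ± 52.8 FPKM (SD, n = 3). PKM and ALDOA overlapped between libraries, while GAPDH, ENO1, LDHA, TPI1, PGAM1 and PGK1 were each separated from the next gene down. Those 8 genes were the members over 100 FPKM. At the other end 10 members lay under 10 FPKM, among them HK2 at 9.91 ± 1.83, PFKFB3 at 8.64 ± 2.01, CA9 at 5.69 ± 0.777 and EGLN3 at 2.42 ± 1.05 FPKM. PDK1, a kinase that inactivates pyruvate dehydrogenase, was lowest at 0.609 ± 0.140 FPKM and overlapped SLC2A3, the neuronal-type glucose transporter, at 0.683 ± 0.338 FPKM. In CPM, which is not per length, PDK1 stood at 11.2 ± 2.48 and lay above SLC2A3 at 2.35 ± 1.16. The last rank of PDK1 thus depends on the length scaling of FPKM. From rank 17 to 25, from ALDOC to PFKM, each gene overlapped the next, so their order there is not beyond the spread of the libraries.

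**Figure D1:**
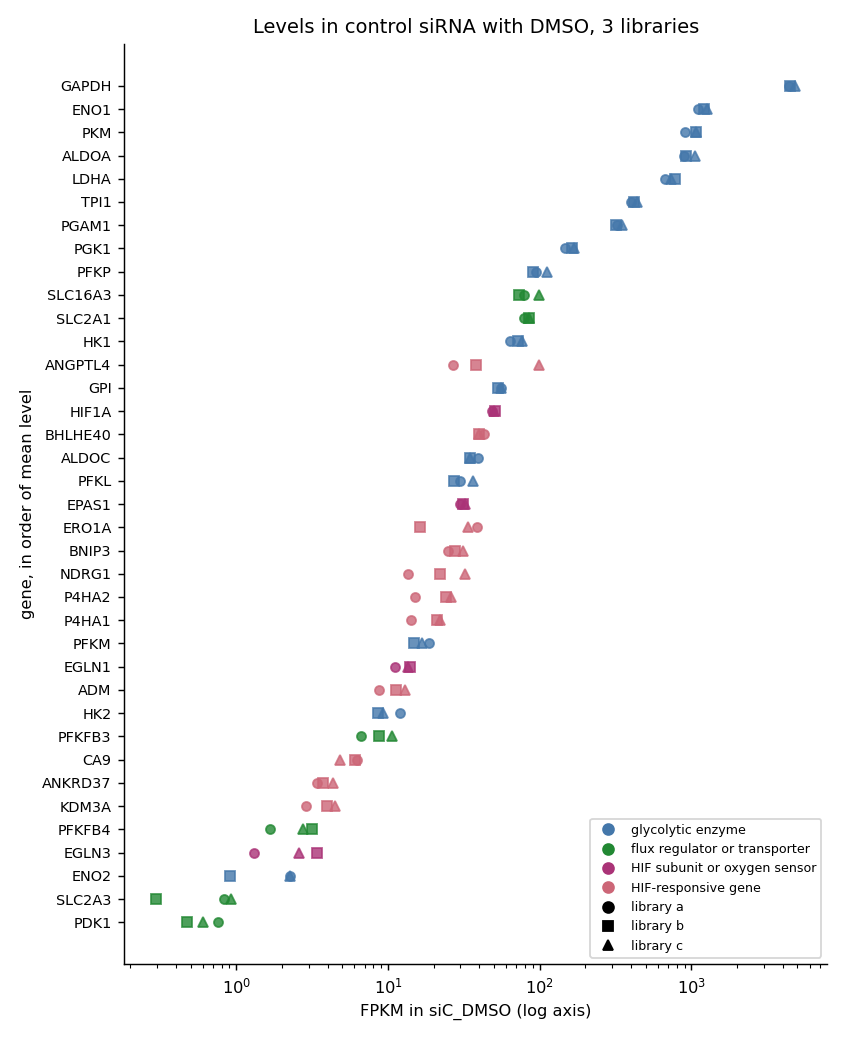
Level of each member in the 3 libraries of control siRNA with DMSO, in FPKM on a log axis, genes in order of mean level, colour by class and symbol by library. Enzymes fill the upper end from GAPDH at 4565 FPKM down to PGK1 at 159.6 FPKM, and ANGPTL4 has the widest spread between libraries for its level.

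GAPDH, ENO1, LDHA, PGK1, PGAM1 and TPI1 have near-identical processed copies in the genome, and SLC2A3 has the close relative SLC2A14. How reads were shared among such copies, and whether strand was used in counting, is not given in the sources used here, so the values of these genes are uncertain to that extent.

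The knockdown in DMSO asks which members changed on depletion of YAP and TAZ in the absence of XMU-MP1. The HIF-responsive genes NDRG1, KDM3A and BNIP3 rose, as did EPAS1, the lactate exporter SLC16A3, the glucose transporter SLC2A1, and the enzymes ALDOA and PFKL. HK2, PFKP, GAPDH, ENO1 and the flux regulator PFKFB3 fell. In all 8 of 37 members rose and 5 fell by edgeR's quasi-likelihood test with Benjamini-Hochberg adjustment over all genes, while 16.1% of all tested genes rose and 16% fell. Enzymes gave 2 higher and 4 lower of 16 with a median log2 fold change of -0.19, and HIF-responsive genes 3 higher and 0 lower of 11 with a median of 0.16. Regulators and transporters gave 2 and 1 of 6 (median 0.49), and HIF subunits and sensors 1 and 0 of 4 (median 0.67). For HIF-responsive genes edgeR gave 1 lower at an unadjusted p under 0.05 and DESeq2 called 1, and for HIF subunits and sensors both gave 0. The median of all tested genes was 0.02. Without library c of siYT_XMU, which enters through the shared spread, the members were again 8 and 5, beside 18.2% and 18.8% of all genes. The higher count was 4 without siC_DMSO a, 5 without siC_DMSO b and 4 without siYT_DMSO c. Genes higher were then 2191 of 19269, 2198 of 19318 and 2325 of 19223, against 2929 of 18143 with all libraries. The lower count was 3 without siC_DMSO c or siYT_DMSO b, beside 2286 of 19257 and 2241 of 19374 genes, against 2897 of 18143. On FPKM the calls of PFKL, ALDOA, ENO1, SLC2A1, SLC16A3 and BNIP3 were lost.

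The knockdown with XMU-MP1 sets siYT_XMU against siC_XMU. NDRG1, BHLHE40, ANGPTL4, CA9, BNIP3 and KDM3A were higher in siYT_XMU than in siC_XMU, with SLC2A3, PFKFB3, SLC16A3, PFKL and EPAS1, while EGLN1, GAPDH and P4HA2 were lower. That is 11 higher and 3 lower of 37, beside 17.7% and 18.6% of all genes. The HIF-responsive class gave 6 higher and 1 lower of 11 (median 0.88) and the enzymes 1 and 1 of 16 (median 0.00), against a median of 0.04 over all genes. Without siYT_XMU c the counts were 15 higher and 2 lower, beside 19.3% and 18.7% of all genes. Enzymes then gave 5 higher and 1 lower (median 0.16), with PGK1, PGAM1, ALDOA and LDHA added, and HIF-responsive genes 7 and 0 (median 1.06), with ANKRD37 added and P4HA2 lost. On FPKM, with all libraries, the calls of PFKL, SLC2A3, SLC16A3, EPAS1, CA9, BNIP3, KDM3A and ANGPTL4 were lost. In this comparison 3 of 3 tested leukocyte markers, 2 of 3 endothelial and 1 of 6 fibroblast markers rose too, beside 17.7% of all genes. These lists hold 7, 5 and 7 markers, and a marker scarce in the other groups could enter the test only through siYT_XMU. The part of these markers in the result was not tested.

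XMU-MP1 in control siRNA asks what 6 h with this compound changed with YAP and TAZ present. These RNA measurements do not show the activity of MST1 and MST2. Of 37 members KDM3A rose and BHLHE40 fell, and the other 35 did not pass the test. These are 1 of 37 each way, beside 4% of all genes higher and 5.26% lower. Class medians lay between -0.02 and 0.08, and the median of all genes at -0.02. Without siYT_XMU c 4 members rose and 1 fell, beside 5.9% and 7.95% of all genes, with ALDOC (0.76), GAPDH (0.54) and ANKRD37 (1.04) added. The higher count was 3 without siYT_XMU b, beside 842 of 18984 genes.

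XMU-MP1 after the knockdown asks the same question with YAP and TAZ depleted. PFKFB3, ADM, ANKRD37 and PFKM rose and HIF1A, EGLN1 and SLC2A1 fell. That is 4 higher and 3 lower of 37, beside 4.19% and 7.92% of all genes. The median was 0.34 for enzymes and 0.39 for HIF-responsive genes, with 14 of 16 and 8 of 11 positive, and -0.44 for HIF subunits and sensors, against 0.02 for all genes. Without siYT_XMU c there were 9 higher and 2 lower, beside 6.65% and 8.37% of all genes, and 6 of 16 enzymes rose (PFKM, ALDOA, ALDOC, TPI1, GAPDH and ENO1). The higher count was 2 without siC_DMSO a, b or c, siC_XMU b or c, siYT_DMSO a or b, or siYT_XMU b. Beside it 445 to 745 of 18984 to 19431 genes were higher, against 761 of 18143 with all libraries. The lower count was 1 without siC_XMU b or c or siYT_DMSO b, beside 912 to 1230 genes lower. It was 0 without siC_DMSO b or c, siYT_DMSO c, or siYT_XMU a or b, beside 787 to 1351 genes, against 1437 with all libraries.

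The interaction tests whether XMU-MP1 acted differently in the siRNA arms. It was positive for PFKFB3 and BHLHE40, which is 2 higher and 0 lower of 37, beside 0.86% and 1.73% of all genes. At an unadjusted p under 0.05 edgeR gave 7 higher and 4 lower. DESeq2 called 4 higher and 2 lower, beside 857 and 926 of 16978 genes. Class medians were 0.25 for enzymes, 0.14 for regulators and transporters, -0.47 for HIF subunits and sensors and 0.70 for HIF-responsive genes, against 0.07 over all genes. Without siYT_XMU c PFKFB3 alone passed, so 1 higher and 0 lower, beside 2.07% and 3.16% of all genes. The higher count was also 1 when any other single library but siYT_XMU b was left out. Beside it 32 to 191 of 19071 to 19433 genes were higher.

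**Figure D2:**
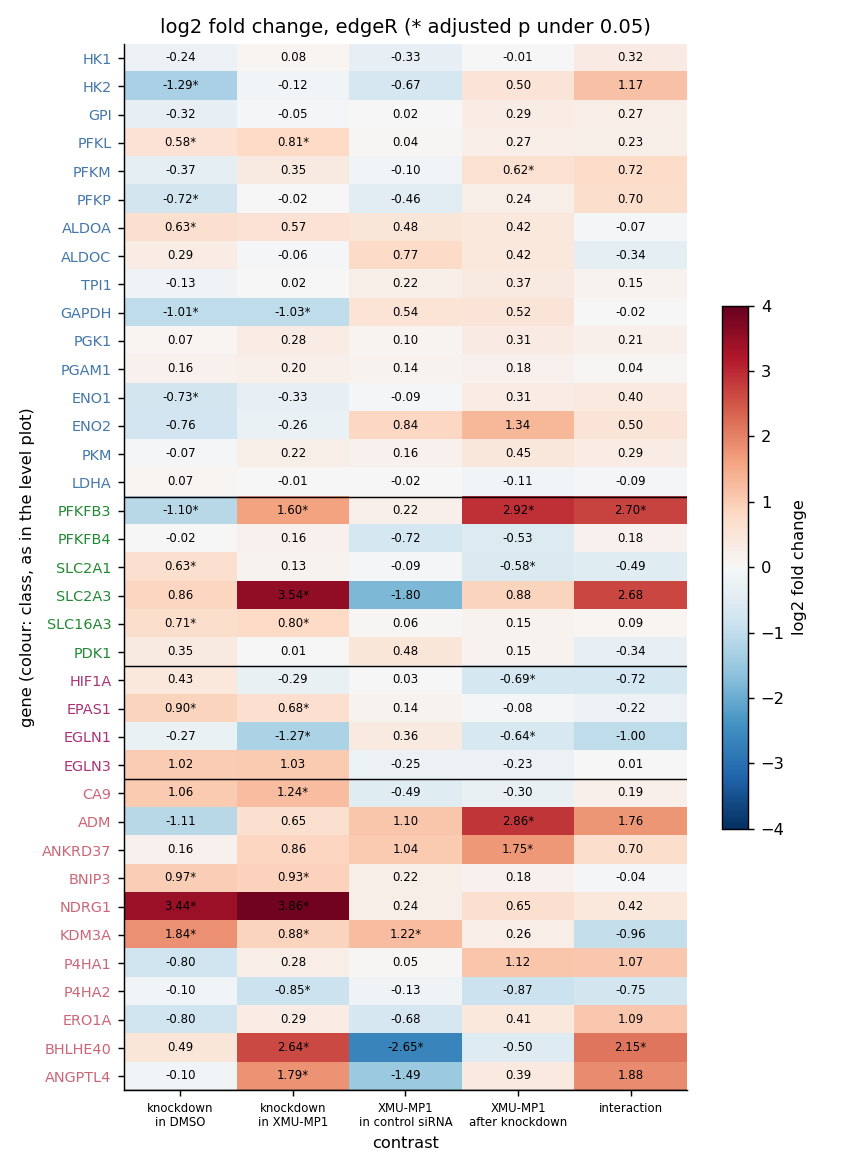
Log2 fold changes of the 37 members (rows, by class) in the 4 group comparisons and the interaction (columns), with an asterisk where edgeR's adjusted p was under 0.05. NDRG1 is the darkest red of both knockdown columns, at 3.44 and 3.86, and PFKFB3 changes from -1.10 to 1.60 between them.

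**Figure D3:**
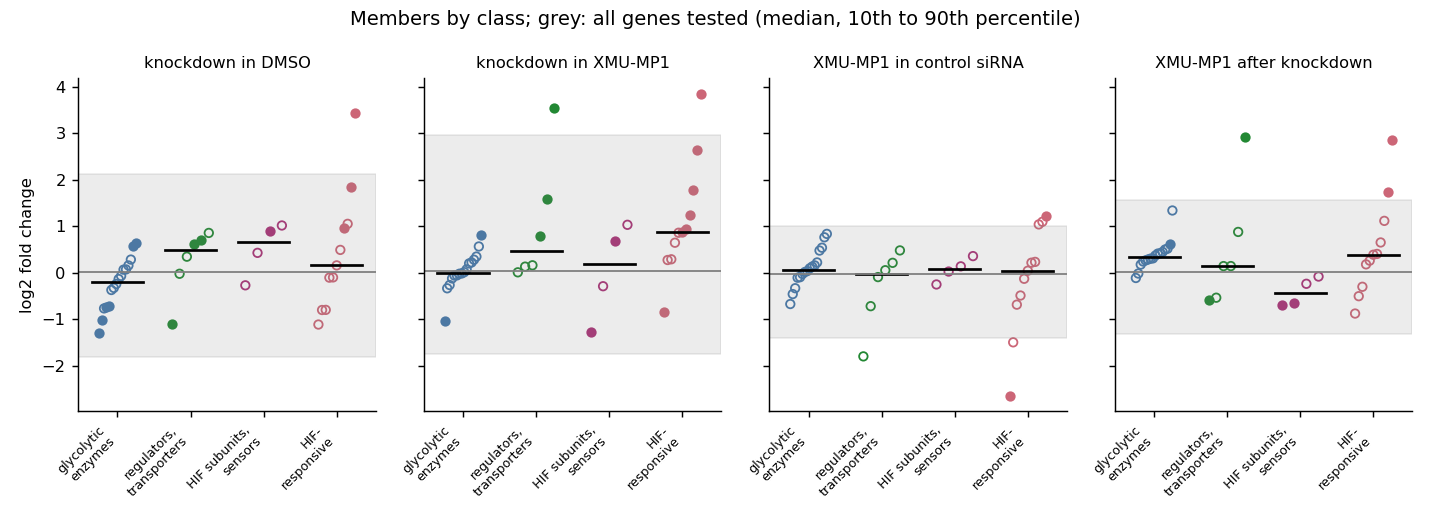
Log2 fold change of each member by class in the 4 group comparisons, filled where called, with the class median as a bar and the median and 10th to 90th percentile of all tested genes in grey. Most members lie within the grey band, with NDRG1 above it in both knockdown panels, SLC2A3 in the knockdown with XMU-MP1, and PFKFB3, ADM and ANKRD37 for XMU-MP1 after the knockdown. For XMU-MP1 in control siRNA, KDM3A, ADM and ANKRD37 lie above it and BHLHE40, SLC2A3 and ANGPTL4 lie under it.

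Among the enzymes that phosphorylate sugars, HK2, the inducible hexokinase (gene ID 3099, plus strand of chromosome 2, 74834126 to 74893359), stood at 62.8, 45.2 and 48.6 CPM in siC_DMSO and 26.9, 13.6 and 23.5 CPM in siYT_DMSO. All knockdown libraries lay below all controls, a 2.45-fold fall (log2 fold change -1.29, SE 0.24, adjusted p = 0.00162). In siC_XMU it stood at 32.0, 33.4 and 33.0 CPM and in siYT_XMU at 29.7, 26.4 and 34.8 CPM, which overlap (log2 fold change -0.12, SE 0.24, adjusted p = 0.737; without c -0.23, adjusted p = 0.520). The drop between siC_DMSO and siC_XMU, where no library overlapped, did not pass the test (log2 fold change -0.67, SE 0.24, adjusted p = 0.110). The position of HK2 and those given for other genes are from the authors' table, on GRCh38.p13. HK1, the constitutive hexokinase, lay between 258 and 374 CPM in all libraries and passed in no comparison.

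PFKP, the platelet-type phosphofructokinase (gene ID 5214, plus strand of chromosome 10, 3067475 to 3136805), fell 1.65-fold in DMSO, from 347, 337 and 415 CPM to 268, 156 and 243 CPM (log2 fold change -0.72, SE 0.20, adjusted p = 0.0175). Its call ended without siC_DMSO c or siYT_DMSO b, with an adjusted p of up to 0.0746 over the alternatives. With XMU-MP1 it stood at 282, 259 and 260.3 CPM in siC_XMU against 278, 296 and 217 CPM in siYT_XMU, overlapping (-0.02, adjusted p = 0.959; without c 0.10, 0.738). Its liver-type relative PFKL went the other way, from 113 ± 17.6 to 169 ± 16.9 CPM in DMSO (log2 fold change 0.58, SE 0.17, adjusted p = 0.0191) and from 116 ± 6.35 to 204 ± 37.3 CPM with XMU-MP1 (log2 fold change 0.81, SE 0.17, adjusted p = 0.00291; without c 0.91, adjusted p = 0.00143). The call in DMSO ended without siC_DMSO a or b or siYT_DMSO c, with an adjusted p of up to 0.278 over the alternatives. PFKM, the muscle type (gene ID 5213, plus strand of chromosome 12, 48105253 to 48146404), stood at 58.4, 68.3 and 63.2 CPM in siYT_DMSO and at 79.7, 119.6 and 91.6 CPM in siYT_XMU with no overlap (log2 fold change 0.62, SE 0.17, adjusted p = 0.0349; without c 0.65, 0.0344), a call that ended in 13 of 19 alternatives, with an adjusted p of up to 0.641, among them without any 1 library of siC_DMSO or siYT_DMSO, siC_XMU b or c, or siYT_XMU b. Its levels in control siRNA were 91.0, 72.7 and 81.5 CPM with DMSO and 80.7, 78.3 and 69.2 CPM with XMU-MP1.

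GAPDH (gene ID 2597, plus strand of chromosome 12, 6534517 to 6538371) fell after the knockdown in both media. It stood at 6783, 6982 and 7562 CPM in siC_DMSO and 4189, 2886 and 3542 CPM in siYT_DMSO, a 2.01-fold fall (log2 fold change -1.01, SE 0.22, adjusted p = 0.00437). With XMU-MP1 it stood at 10563, 11020.3 and 9467 CPM and 5657, 5661 and 3918 CPM, a 2.04-fold fall (log2 fold change -1.03, SE 0.22, adjusted p = 0.00372; without c -0.88, adjusted p = 0.00315). No knockdown library overlapped a control. As a share of the summed FPKM of the 16 enzymes GAPDH made up 46.2 to 48.1% in siC_DMSO, 53.2 to 55.5% in siC_XMU, 29.1 to 33.0% in siYT_DMSO and 32.4 to 36.7% in siYT_XMU, and the siRNA arms did not overlap. The 36.7% is library c, where LDHA is at 0, and libraries a and b were at 33.6 and 32.4%. With LDHA left out of the sum the ranges were 50.3 to 51.9%, 56.8 to 58.5%, 32.1 to 37.4% and 35.7 to 37.5% in the same order.

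ENO1 (gene ID 2023, minus strand of chromosome 1, 8861000 to 8878686) stood at 3097, 3466 and 3631 CPM in siC_DMSO and 2208, 1699 and 2242 CPM in siYT_DMSO (log2 fold change -0.73, SE 0.24, adjusted p = 0.0361), and at 3506, 3096 and 2960.0 and 2920.0, 3044 and 1636 CPM with XMU-MP1, where the groups overlapped (-0.33, adjusted p = 0.305; without c -0.10, 0.663). The fall in DMSO was lost in 10 of 19 alternatives, with an adjusted p of up to 0.139, among them without any 1 library of siC_DMSO or siYT_DMSO, or siC_XMU b or c. ALDOA rose in DMSO from 1856 ± 172 to 2880.4 ± 447 CPM (log2 fold change 0.63, SE 0.21, adjusted p = 0.0361), a call lost in 9 of 19 alternatives, with an adjusted p of up to 0.351, among them without any 1 library of siC_DMSO, siC_XMU b or c, or siYT_DMSO a or c. With XMU-MP1 it stood at 2590.0 ± 160.0 and 3841 ± 836 CPM (0.57, adjusted p = 0.0511; without c 0.73, 0.00429). PKM (gene ID 5315, minus strand of chromosome 15, 72199029 to 72231624) stood at 3319, 4014 and 3984 CPM in siC_DMSO, at 3966, 4667 and 4025 CPM in siC_XMU, at 3480.4, 3598 and 3736 CPM in siYT_DMSO and at 4536, 5943 and 4307 CPM in siYT_XMU, and passed in no comparison (log2 fold changes from -0.07 to 0.45).

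LDHA (gene ID 3939, plus strand of chromosome 11, 18394389 to 18408218) stood at 1652, 1934 and 1826 CPM in siC_DMSO, at 1933, 1597 and 1796 CPM in siC_XMU, then 2366, 1550.2 and 1784 CPM in siYT_DMSO. In siYT_XMU it stood at 2741, 2539.8 and 0 CPM. The count of 0 in library c allows up to 0.622 CPM, for a gene abundant in every other library. Whether this exact 0 is a failed assignment of reads was not tested. With that library LDHA passed in no comparison, with an SE of 1.26 in the group comparisons. Without it LDHA was higher in siYT_XMU than in siC_XMU (0.57, adjusted p = 0.0304) and did not pass in DMSO (0.07, 0.784).

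The remaining enzymes GPI, ALDOC, TPI1, PGK1, PGAM1 and ENO2 passed in no comparison with all libraries. Their log2 fold changes in the knockdown in DMSO ran from -0.76 (ENO2, the least abundant, at 3.73 ± 1.60 and 2.19 ± 1.21 CPM) to 0.29 (ALDOC). Library b of siYT_DMSO was the lowest of its group for 14 of 16 enzymes and 8 of 11 HIF-responsive genes, in all 29 of 37 members, while it was lowest for 28.6% of all tested genes. In siYT_XMU library b was highest for 12 of 16 enzymes, against 38.3% of all genes, and library c was lowest for 14 of 16, against 48.1% of all genes.

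Among the flux regulators, PFKFB3 (gene ID 5209, plus strand of chromosome 10, 6144918 to 6254648), the isoform with the highest ratio of kinase to phosphatase activity, differed with both treatments. It stood at 31.9, 42.5 and 51.7 CPM in siC_DMSO and 25.1, 16.5 and 17.3 CPM in siYT_DMSO, with all knockdown libraries below all controls (log2 fold change -1.10, SE 0.28, adjusted p = 0.00948). With XMU-MP1 it stood at 40.3, 50.03 and 56.4 CPM in siC_XMU against 98.5, 201 and 145 CPM in siYT_XMU, with all knockdown libraries above (log2 fold change 1.60, SE 0.28, adjusted p = 0.000999; without c 1.61, adjusted p = 0.00242). The inhibitor raised it 7.56-fold after the knockdown (log2 fold change 2.92, SE 0.30, adjusted p = 0.000182; without c 2.93, 0.000592), and in control siRNA the groups overlapped (log2 fold change 0.22, SE 0.27, adjusted p = 0.726). The difference between these effects passed (log2 fold change 2.70, SE 0.39, adjusted p = 0.00838; without c 2.72, 0.0123). Each of the 4 PFKFB3 calls held in every alternative tried. PFKFB4, its relative with more phosphatase activity, had means of 13.6 ± 4.24, 8.27 ± 1.33, 13.4 ± 2.93 and 9.24 ± 0.882 CPM in siC_DMSO, siC_XMU, siYT_DMSO and siYT_XMU and passed in no comparison.

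SLC2A1 (GLUT1, the main basal glucose transporter; gene ID 6513, minus strand of chromosome 1, 42925353 to 42958868) stood at 239.6, 260.3 and 257 CPM in siC_DMSO and 384, 337 and 448 CPM in siYT_DMSO, all libraries higher (log2 fold change 0.63, SE 0.15, adjusted p = 0.00828). In siYT_XMU it stood at 256, 260.4 and 264 CPM, overlapping siC_XMU at 197, 264 and 250.1 CPM, and below every library of siYT_DMSO (log2 fold change -0.58, SE 0.15, adjusted p = 0.0301; without c -0.60, 0.0310). That fall lost its call in 8 of 19 alternatives, among them without siC_DMSO b or c, siYT_DMSO a or c, or siYT_XMU a or b, with an adjusted p of up to 0.137. The interaction did not pass (-0.49, adjusted p = 0.254).

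SLC2A3 (GLUT3; gene ID 6515, minus strand of chromosome 12, 7919230 to 7936187) was scarce and uneven, at 2.85, 1.03 and 3.18 CPM in siC_DMSO, at 0.722, 0.471 and 0.834 CPM in siC_XMU, at 6.01, 0.135 and 6.70 CPM in siYT_DMSO and at 11.6, 0.735 and 11.6 CPM in siYT_XMU. Library b was the lowest in each of the 4 groups. Its rise in the knockdown with XMU-MP1 rested on overlapping libraries (log2 fold change 3.54, SE 1.19, adjusted p = 0.0360) and was not called without siYT_XMU c (3.17, adjusted p = 0.0748), without siYT_XMU a or without any 1 of the siC_XMU libraries, with an adjusted p of up to 0.134 over the alternatives.

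SLC16A3 (MCT4, the lactate exporter of glycolytic cells) rose in both media, from 245 ± 40.7 to 399.8 ± 74.8 CPM with DMSO (log2 fold change 0.71, SE 0.22, adjusted p = 0.0274) and from 255 ± 14.7 to 442 ± 122 CPM with XMU-MP1 (log2 fold change 0.80, SE 0.22, adjusted p = 0.0143; without c 0.99, 0.00155). The call in DMSO ended without siC_DMSO a or b or siYT_DMSO c, and that in XMU-MP1 without siC_XMU c or siYT_XMU b, with adjusted p values of up to 0.272 and 0.590 over the alternatives. PDK1 (gene ID 5163, plus strand of chromosome 2, 172555373 to 172672698) stood at 13.7, 8.73 and 11.1 CPM in siC_DMSO, at 20.4, 13.7 and 12.8 CPM in siC_XMU, at 27.1, 6.15 and 9.55 CPM in siYT_DMSO and at 21.5, 14.8 and 10.6 CPM in siYT_XMU. The groups overlapped in all 4 comparisons and it passed in none.

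Of the HIF alpha subunits, EPAS1 (gene ID 2034, plus strand of chromosome 2, 46297407 to 46386697) rose after the knockdown in both media. It stood at 146, 154 and 157 CPM in siC_DMSO and 239, 294 and 323 CPM in siYT_DMSO (log2 fold change 0.90, SE 0.18, adjusted p = 0.00250), and at 159, 177 and 168 CPM in siC_XMU against 209, 263 and 339 CPM in siYT_XMU (log2 fold change 0.68, SE 0.18, adjusted p = 0.0116; without c 0.48, adjusted p = 0.0261). No knockdown library overlapped a control in either medium. HIF1A (gene ID 3091, plus strand of chromosome 14, 61695513 to 61748258) stood at 184, 197 and 192 CPM in siC_DMSO, at 171, 195 and 218 CPM in siC_XMU, then 210.3, 260.0 and 301 CPM in siYT_DMSO, where all libraries were higher than in siC_DMSO without passing the test (log2 fold change 0.43, SE 0.20, adjusted p = 0.131). In siYT_XMU it stood at 116, 162 and 202 CPM, below every library of siYT_DMSO (log2 fold change -0.69, SE 0.20, adjusted p = 0.0480; without c -0.89, 0.0131). That call was near the threshold and ended in 13 of 19 alternatives, among them without any 1 library other than siYT_DMSO a or siYT_XMU c, with an adjusted p of up to 0.196, and the interaction did not pass (-0.72, 0.209).

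Of the oxygen sensors, EGLN1 (PHD2, the main HIF prolyl hydroxylase; gene ID 54583, minus strand of chromosome 1, 231363756 to 231422332) stood at 43.6, 55.3 and 53.3 CPM in siC_DMSO, at 54.2, 67.5 and 73.9 CPM in siC_XMU, at 37.3, 39.0 and 50.2 CPM in siYT_DMSO and at 30.0, 24.9 and 26.3 CPM in siYT_XMU. The siYT_XMU libraries lay below all others. EGLN1 was 2.41-fold lower in siYT_XMU than in siC_XMU (log2 fold change -1.27, SE 0.19, adjusted p = 0.000293; without c -1.25, adjusted p = 0.000825), and in DMSO the siRNA groups overlapped (-0.27, 0.300). The fall with XMU-MP1 after the knockdown (log2 fold change -0.64, SE 0.18, adjusted p = 0.0424) was not called without c (-0.62, 0.0592) and in 13 of 19 alternatives in all, among them without any 1 library other than siC_XMU a or siYT_DMSO a, with an adjusted p of up to 0.170, and the interaction did not pass (-1.001, 0.0637). EGLN3 (PHD3; gene ID 112399, minus strand of chromosome 14, 33924227 to 33951074) stood at 3.14, 8.29 and 6.29 CPM in siC_DMSO, at 4.57, 5.02 and 5.33 CPM in siC_XMU, at 17.3, 4.72 and 14.0 CPM in siYT_DMSO and at 9.80, 9.47 and 11.4 CPM in siYT_XMU. Every siYT_XMU library was above every siC_XMU library, but EGLN3 passed in no comparison (log2 fold change 1.03, SE 0.45, adjusted p = 0.0944; without c 0.95, 0.160).

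NDRG1 (gene ID 10397, minus strand of chromosome 8, 133237175 to 133297252), a stress-responsive protein long used as a hypoxia marker and also induced in differentiating epithelium, had the largest log2 fold change of the 37 members in both knockdown comparisons. It stood at 59.7, 98.9 and 145 CPM in siC_DMSO and 1424, 682 and 1190.3 CPM in siYT_DMSO, 10.9-fold higher (log2 fold change 3.44, SE 0.39, adjusted p = 5.25e-05). With XMU-MP1 it stood at 100.4, 127 and 130.2 CPM and 2337, 1143 and 1712 CPM, 14.5-fold higher (log2 fold change 3.86, SE 0.40, adjusted p = 3.07e-05; without c 3.86, 9.68e-05). The lowest knockdown library was above the highest control in both media. XMU-MP1 itself changed NDRG1 in neither siRNA arm past the threshold (0.24, adjusted p = 0.782, and 0.65, 0.267; the latter without c 0.66, 0.305).

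KDM3A, a histone H3 lysine 9 demethylase (gene ID 55818, plus strand of chromosome 2, 86440647 to 86492716), was the member that rose with either treatment alone. It stood at 13.3, 18.6 and 20.9 CPM in siC_DMSO, at 57.4, 62.7 and 69.3 CPM in siYT_DMSO, at 39.8, 44.7 and 38.6 CPM in siC_XMU. Its siYT_XMU libraries held 96.3, 63.9 and 66.9 CPM. The knockdown raised it 3.59-fold in DMSO (log2 fold change 1.84, SE 0.21, adjusted p = 5.98e-05) and 1.85-fold with XMU-MP1 (log2 fold change 0.88, SE 0.21, adjusted p = 0.00620; without c 0.96, 0.00603). XMU-MP1 raised it 2.33-fold in control siRNA (log2 fold change 1.22, SE 0.21, adjusted p = 0.00505), and after the knockdown the groups overlapped (0.26, 0.459). The difference of the inhibitor's effects did not pass (-0.96, adjusted p = 0.104). The libraries of siC_DMSO lay below all other 9.

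BNIP3, a receptor for the removal of mitochondria by autophagy (gene ID 664, minus strand of chromosome 10, 131967683 to 131982013), stood at 36.0, 41.0 and 45.6 CPM in siC_DMSO and 79.2, 49.8 and 111 CPM in siYT_DMSO (log2 fold change 0.97, SE 0.25, adjusted p = 0.0108), and at 44.1, 46.9 and 51.6 CPM in siC_XMU against 101, 97.4 and 73.8 CPM in siYT_XMU (log2 fold change 0.93, SE 0.25, adjusted p = 0.0122; without c 1.06, 0.00945). All knockdown libraries were higher than their controls, siYT_DMSO b by the least. The call in DMSO ended without siC_DMSO a or siYT_DMSO c, with an adjusted p of up to 0.126 over the alternatives.

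CA9, the tumour carbonic anhydrase and a sensitive marker of HIF1 activity (gene ID 768, plus strand of chromosome 9, 35673809 to 35681159), stood at 9.85, 9.82 and 7.70 CPM in siC_DMSO, at 9.72, 6.71 and 3.11 CPM in siC_XMU, at 26.5, 9.75 and 20.7 CPM in siYT_DMSO and at 18.6, 16.7 and 10.6 CPM in siYT_XMU. Only the siRNA groups with XMU-MP1 were separated, and the rise there passed (log2 fold change 1.24, SE 0.44, adjusted p = 0.0436; without c 1.44, 0.0321) but was lost in 11 of 19 alternatives, among them without any 1 library of siC_DMSO, siC_XMU b or c, siYT_DMSO c, or siYT_XMU a or b, with an adjusted p of up to 0.189. In DMSO library b overlapped the controls (1.06, 0.0850).

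BHLHE40 (DEC1), a circadian and hypoxia-linked repressor (gene ID 8553, plus strand of chromosome 3, 4979420 to 4985323), was the one member that fell with XMU-MP1 in control siRNA. It stood at 131, 123 and 123 CPM in siC_DMSO and 25.2, 10.4 and 24.6 CPM in siC_XMU, 6.28-fold lower with no overlap (log2 fold change -2.65, SE 0.37, adjusted p = 0.00193). After the knockdown it stood at 196, 132 and 204 CPM with DMSO and 176, 71.9 and 128 CPM with XMU-MP1, which overlap (-0.50, 0.400). The siYT_XMU libraries were 6.25-fold above siC_XMU (log2 fold change 2.64, SE 0.37, adjusted p = 0.000235; without c 2.62, 0.000724). The interaction passed (log2 fold change 2.15, SE 0.50, adjusted p = 0.0459) but not without c (2.13, adjusted p = 0.0523), and its call was lost in 13 of 18 alternatives, among them without any 1 library other than siYT_XMU b, with an adjusted p of up to 0.123.

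ADM, adrenomedullin, a vasodilator peptide (gene ID 133, plus strand of chromosome 11, 10305073 to 10307397), stood at 11.6, 15.2 and 17.5 CPM in siC_DMSO, at 28.4, 30.3 and 36.3 CPM in siC_XMU, at 6.51, 6.77 and 7.21 CPM in siYT_DMSO and at 23.4, 101 and 23.4 CPM in siYT_XMU. Libraries with XMU-MP1 lay above those with DMSO in both siRNA arms, and siYT_XMU b stood far above a and c. The rise passed after the knockdown (log2 fold change 2.86, SE 0.50, adjusted p = 0.00366; without c 3.19, 0.00221) and held in every alternative, with log2 fold changes from 1.77 to 3.20. In control siRNA it did not pass (1.10, 0.179), and neither did the difference (1.76, 0.178). ANKRD37 (gene ID 353322, plus strand of chromosome 4, 185396841 to 185400243), an ankyrin repeat protein, stood at 3.14, 3.48 and 4.01 CPM in siC_DMSO, at 6.23, 7.39 and 8.28 CPM in siC_XMU, at 4.92, 2.47 and 4.52 CPM in siYT_DMSO and at 17.4, 17.8 and 4.14 CPM in siYT_XMU. Library c of siYT_XMU lay within the DMSO range, and the rise after the knockdown (log2 fold change 1.75, SE 0.47, adjusted p = 0.0330) was larger without it (2.15, 0.00186). It was lost in 14 of 19 alternatives, among them without any 1 library other than siC_XMU a or siYT_XMU c, with an adjusted p of up to 0.205.

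ANGPTL4, a secreted inhibitor of lipoprotein lipase (gene ID 51129, plus strand of chromosome 19, 8364129 to 8374373), stood at 46.5, 67.2 and 175 CPM in siC_DMSO, at 28.1, 17.5 and 56.8 CPM in siC_XMU, at 103, 37.2 and 129 CPM in siYT_DMSO and at 152, 126 and 75.0 CPM in siYT_XMU. The siYT_XMU libraries lay above siC_XMU (log2 fold change 1.79, SE 0.59, adjusted p = 0.0328; without c 2.02, 0.0314), a call lost in 6 of 19 alternatives, among them without siC_XMU a or b or siYT_XMU a or b, with an adjusted p of up to 0.114. P4HA2, a collagen prolyl hydroxylase subunit (gene ID 8974, minus strand of chromosome 5, 132190147 to 132227853), stood at 72.2, 118 and 126 CPM in siC_DMSO, at 63.9, 107 and 119 CPM in siC_XMU, at 88.8, 99.97 and 106 CPM in siYT_DMSO and at 60.1, 58.7 and 41.4 CPM in siYT_XMU, below both other groups compared. Its fall against siC_XMU (log2 fold change -0.85, SE 0.26, adjusted p = 0.0249) was not called without siYT_XMU c (-0.71, 0.0725) or without siC_XMU b or c, with an adjusted p of up to 0.103. P4HA1, the alternative subunit, and ERO1A, an oxidase of disulfide formation in the endoplasmic reticulum, passed in no comparison. ERO1A ranged from 38.5 to 188 CPM over the 12 libraries.

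**Figure D4:**
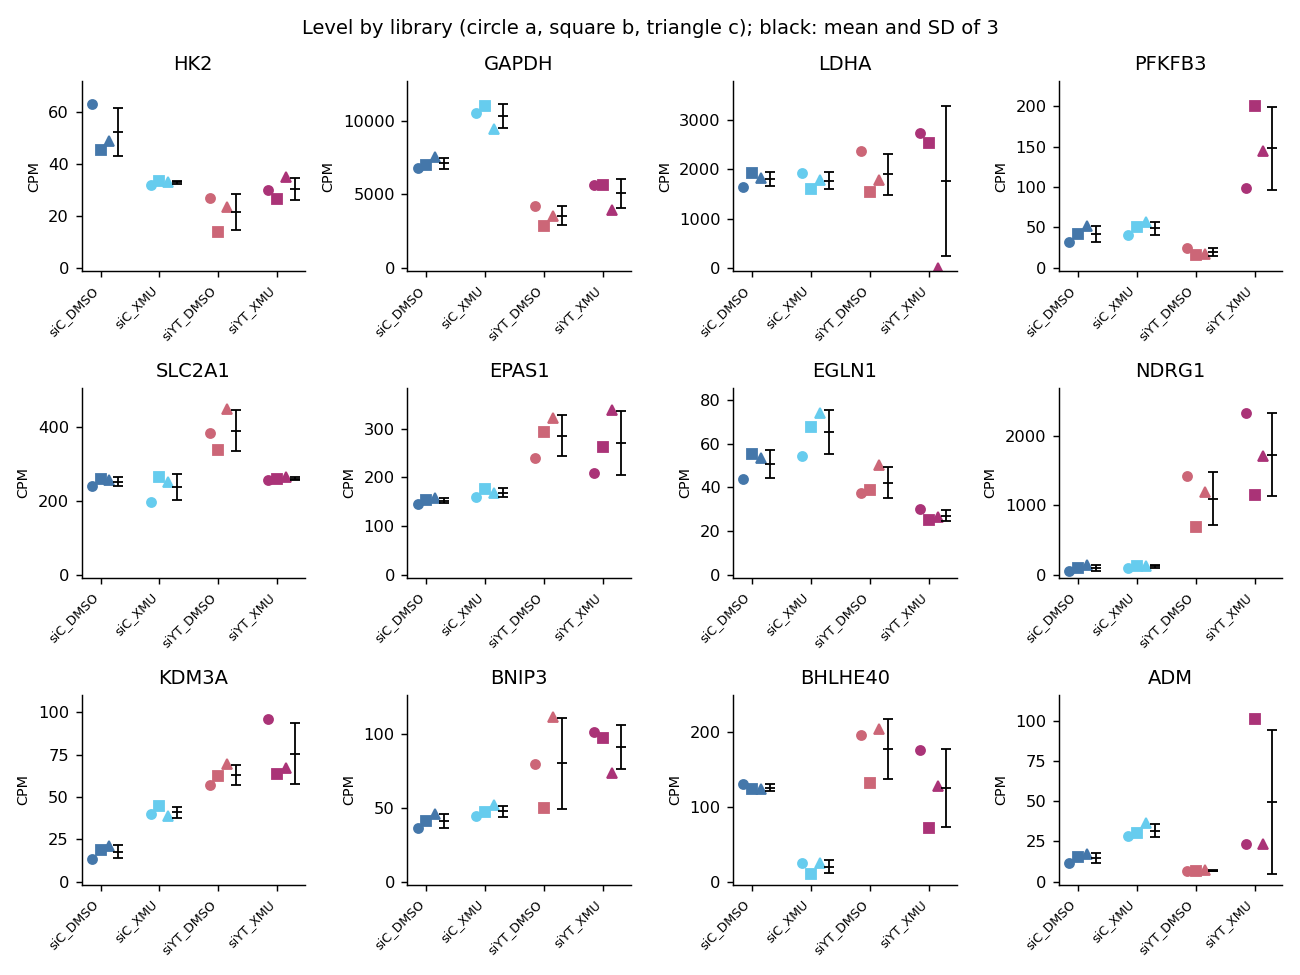
Levels of 12 members in CPM in each library, groups on the horizontal axis, with mean and SD of 3 libraries in black. NDRG1 is high in both knockdown groups, PFKFB3 in siYT_XMU, and BHLHE40 is low in siC_XMU, while LDHA in library c of siYT_XMU lies at 0.

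Enzymes and HIF-responsive genes were set side by side in each comparison, as a description and with no test between the classes. In DMSO the knockdown lowered more enzymes than it raised (4 against 2 of 16) and raised more HIF-responsive genes than it lowered (3 against 0 of 11). With 16.1% of all genes higher and 16% lower, these small counts lie near the background. With XMU-MP1 the class medians were 0.00 and 0.88, and without siYT_XMU c 0.16 and 1.06. The direction of the DMSO median of HIF-responsive genes was not stable, at -0.06 and -0.08 on FPKM with pseudocounts of 1 and 0.1. The median of all genes in that comparison moved as well, to -0.15 and -0.21. FPKM carries no TMM scaling, and on it the median of all genes in the knockdown with XMU-MP1 was -0.43 and -0.65, with 1340 genes higher and 5420 lower at a pseudocount of 1 against 3219 and 3381 by counts. The enzymes' median there was -0.53 and -0.54 and that of HIF-responsive genes 0.31 and 0.34. In a bulk sample fewer cells with a transcript and less of it per cell cannot be told apart.

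The share of 1 member in the summed FPKM of its family, which does not depend on library scaling, was compared for 9 families. None of the 36 shares and contrasts passed an exact two-sided permutation test, which this design could not pass. In 19 of them the groups did not overlap, which gives an exact permutation p of 0.1, the smallest that 3 against 3 allows, and 0.189 adjusted over the 36, and in the other 17 they overlapped. The 36 reuse the same 4 groups, and no such count was made over other genes. The 19 of 36 is therefore a description and not a result particular to these families. EPAS1 made up 38.6% ± 0.585 of HIF1A plus EPAS1 in siC_DMSO, 40.5% ± 2.41 in siC_XMU, 46.6% ± 0.826 in siYT_DMSO and 57.2% ± 1.29 in siYT_XMU (SD, n = 3). PFKP made up 66.01, 68.4 and 67.8% of the phosphofructokinases in the siC_DMSO libraries and 55.6, 42.8 and 50.4% in siYT_DMSO, and HK2 15.8, 10.6 and 10.8% and 7.78, 4.37 and 6.62% of the hexokinase pair HK1 and HK2. PFKFB4 made up 20.1, 26.6 and 20.6% of PFKFB3 plus PFKFB4 in siC_DMSO, 33.8, 35.9 and 45.6% in siYT_DMSO and 8.58, 3.91 and 5.03% in siYT_XMU, lowest where PFKFB3 was highest. EGLN3 made up 11.99, 10.7 and 10.4% of EGLN1 plus EGLN3 in siC_XMU and 34.6, 38.1 and 41.0% in siYT_XMU. P4HA2 made up 68.3, 77.8 and 54.1% of P4HA1 plus P4HA2 in siYT_DMSO and 37.8, 40.3 and 20.2% in siYT_XMU. Apart from the pair siC_DMSO and siC_XMU for EPAS1, which overlapped (exact permutation p = 0.4), the groups contrasted here did not overlap. Without siYT_XMU c the P4HA2 share was 10.98 points lower in siYT_XMU than in siC_XMU, against 17.2 points with it. The shares of ALDOC, ENO2 and SLC2A3 had groups without overlap in 1, 2 and 1 of 4 contrasts.

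**Figure D5:**
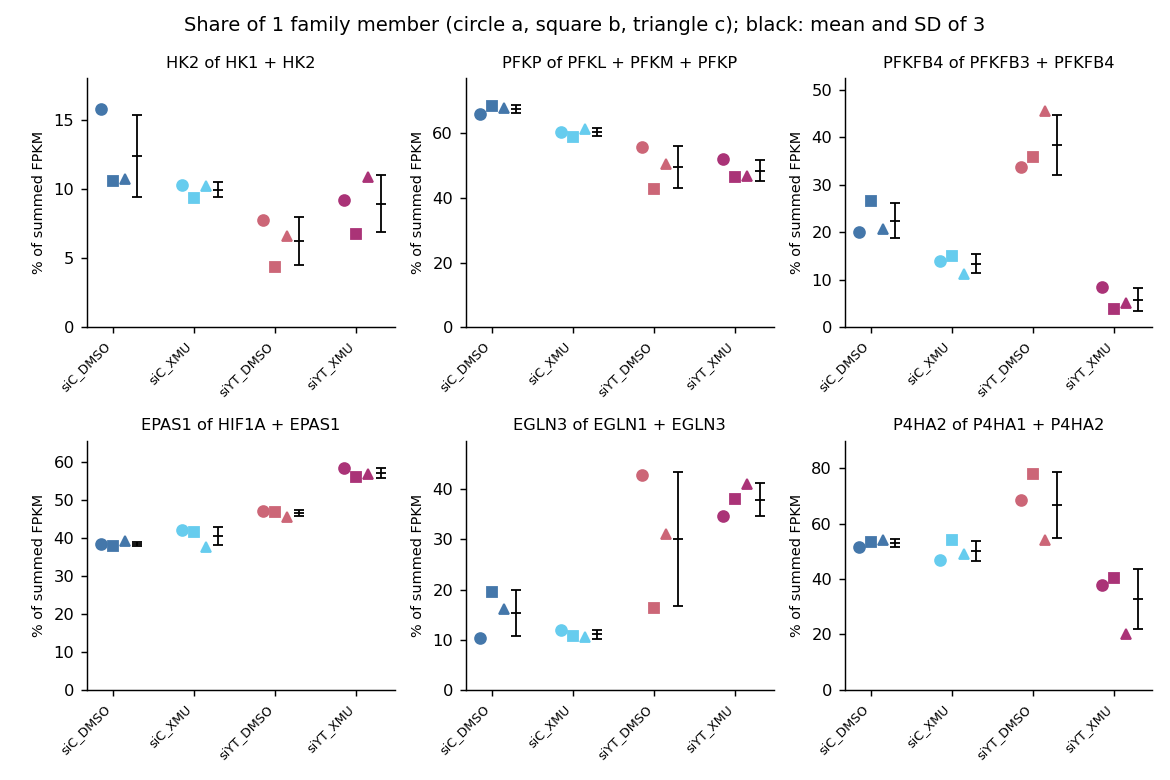
Share of 1 member in the summed FPKM of its family, in percent, in each library, with mean and SD of 3 libraries in black. EPAS1 increases from 38.6% in siC_DMSO to 57.2% in siYT_XMU, and PFKFB4 drops to 5.84% in siYT_XMU.

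Other genes of these pathways, from lists chosen by function with earlier results of these data known, were counted in the same fit. In the knockdown in DMSO, of 26 tested further genes of glycolysis and pyruvate use 4 rose and 6 fell, beside 16.1% of all genes higher and 16% lower. PDK2, a kinase that inactivates pyruvate dehydrogenase, rose from 6.66 ± 0.786 to 64.2 ± 21.5 CPM (3.27, adjusted p = 0.000154), and PDP1, the phosphatase that reactivates it, fell from 67.8 ± 9.03 to 19.6 ± 2.40 CPM (-1.79, 0.000112). DLAT, a subunit of the same complex, fell (-1.02), as did MPC1, a subunit of the mitochondrial pyruvate carrier (-0.96). Of 7 tested transporters 1 rose and 2 fell, near the same background. SLC5A1, the sodium-coupled glucose transporter, had counts of 0 in all siC_DMSO libraries and stood at 44.4, 17.2 and 35.5 CPM in siYT_DMSO, and the lactate transporter SLC16A7 (-2.24) and the glucose transporter SLC2A12 (-2.17) fell.

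Of 14 tested HIF pathway regulators 5 rose and 0 fell in DMSO, beside 16.1% and 16% of all genes. CITED2, which competes with HIF for its coactivators, rose from 26.1 ± 3.71 to 137 ± 21.8 CPM (2.39, adjusted p = 0.00339), and VHL, the subunit that recognises hydroxylated HIF (0.69), ELOB, a subunit of the same ligase (0.97), and HIF1AN, the asparaginyl hydroxylase of HIF (0.46), rose too, with adjusted p values up to 0.0250. At an unadjusted p under 0.05 edgeR again gave 0 lower. Of 35 tested further HIF-responsive genes 9 rose and 7 fell, beside the same 16.1% and 16%. WSB1 (2.68), TMEM45A (6.44), BNIP3L, the close relative of BNIP3 (1.56), and RORA (3.93) rose with the smallest adjusted p.

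In the knockdown with XMU-MP1 the 4 lists gave 5 higher and 8 lower of 26, 1 and 2 of 7, 3 and 1 of 14, and 8 and 8 of 35, beside 17.7% and 18.6% of all genes. Without siYT_XMU c these were 8 and 10 of 27, 1 and 3 of 7, 3 and 2 of 14, and 9 and 8 of 36, beside 19.3% and 18.7%. With XMU-MP1 after the knockdown the lists gave 2 and 3, 0 and 0, 0 and 1, and 1 and 5, beside 4.19% and 7.92% of all genes. Without siYT_XMU c these were 5 and 2, 0 and 0, 1 and 4, and 2 and 6, beside 6.65% and 8.37%. With XMU-MP1 in control siRNA the lists gave 2 higher and 1 lower of 26, 0 and 1 of 7, 0 and 1 of 14, and 1 and 2 of 35, beside 4% and 5.26% of all genes. Without siYT_XMU c these were 3 and 1 of 27, 1 and 2 of 7, 3 and 1 of 14, and 2 and 2 of 36, beside 5.9% and 7.95%. Where edgeR called 0 with all libraries, its unadjusted p was under 0.05 for 1 transporter higher and 0 lower and 0 regulators higher after the knockdown, and for 0 transporters and 3 regulators higher in control siRNA. PDP1 fell (-0.996, adjusted p = 0.0172), MPC1 rose (0.72) and so did TIGAR, a fructose bisphosphatase (0.71). SLC2A12 (-2.61), ARNT2, a partner of HIF alpha subunits (-4.003), AK4, a mitochondrial adenylate kinase (-1.46), and ZNF395 (-1.43) fell, and WSB1 rose (0.95).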

How the data were processed

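Poly(A) RNA of 12 MCF10A samples in 4 groups of 3 was sequenced. The authors deposited whole-number read counts and FPKM values (fragments scaled to transcript length and library size) per gene in a table of 46931 genes. Per the submitters' processing notes cutadapt, FastQC, HISAT2, StringTie, edgeR and the build GRCh38.p13 were used; their versions, roles and strand setting are not given in the sources used here.

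From the deposited counts, genes passing edgeR's expression filter (18143) were scaled by TMM and fitted over all 4 groups with edgeR 4.0.16 (R 4.3.3), using the quasi-likelihood test with 8 residual degrees of freedom and Benjamini-Hochberg adjustment over all tested genes. A call is an adjusted p under 0.05. The SE of a log2 fold change is its absolute value divided by the square root of that test's F statistic, and is not a fitted standard error. CPM are TMM-scaled and carry SD over 3 libraries. Depths of 8243351 to 67953633 counts put 3 counts, the limit a count of 0 allows, at 0.0382 to 0.622 CPM, which covers counting error only. The deposited FPKM served to compare levels between genes and for shares within families, tested by exact permutation (SciPy 1.17.1). Alternatives were no filter, DESeq2 1.42.0 size factors and test, the compared groups only, a replicate block, limma 3.58.1 on log2(FPKM + 1) and log2(FPKM + 0.1), and leaving out each library. A fold change there is on that scale, which understates low genes.

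Members and lists were chosen with earlier results of these data known. Values per library are given for up to 4 called members with the largest fold change in each direction of each comparison of groups and for 15 fixed members, and from each further list the up to 4 called genes with the smallest adjusted p are named. Same-lettered libraries were weakly correlated: of 18 pairs 2 had deviations correlated over 0.1 (range -0.02 to 0.17). Such values do not settle whether letters mark shared cultures or days, and the main fit used no block. The main edgeR fit was checked on simulated counts for the knockdown in DMSO only. The permutation test and the sequence search were checked on small made-up inputs. The other comparisons and the alternative fits were not simulated.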

Additional observations from a re-analysis of the deposited data

Results flagged for a closer look

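PFKFB3 and BHLHE40 are given here because the effect of XMU-MP1 differed between the siRNA arms by the interaction test of edgeR. For PFKFB3 the difference of log2 fold changes, knockdown minus control siRNA, was 2.70 (adjusted p = 0.00838): the log2 fold change with the inhibitor was 0.22 in control siRNA and 2.92 after the knockdown. For BHLHE40 it was 2.15 (adjusted p = 0.0459), from -2.65 in control siRNA to -0.50 after the knockdown, and 2.13 (adjusted p = 0.0523) without library c of siYT_XMU. No group held 4 or more libraries, so single libraries were not tested for standing apart.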

How the results depend on the processing

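Over all alternatives 3258 of 3478 values of single members stayed on their side of the threshold, 150 lost and 69 gained a call, and 1 gained a call in the opposite direction. Of 2688 values uncalled in both fits 198 changed sign. The value that turned was LDHA in the knockdown with XMU-MP1, at 0.57 without siYT_XMU c against -0.01, with a range of -0.48 to 0.57 when 1 library was left out; library c holds its count of 0. Leaving out 1 library gave 4 to 10 higher and 3 to 6 lower members in the knockdown in DMSO, 8 to 15 and 2 to 3 with XMU-MP1, 1 to 4 and 1 to 1 for XMU-MP1 in control siRNA, 2 to 9 and 0 to 3 after the knockdown, and 1 to 2 and 0 to 1 for the interaction. The calls of all genes moved too. They were 2191 to 3487 higher and 2241 to 3612 lower in the knockdown in DMSO, and 2307 to 3710 and 2589 to 3602 with XMU-MP1. For XMU-MP1 in control siRNA they were 260 to 1134 and 369 to 1527. After the knockdown they were 372 to 1277 and 787 to 1608, and for the interaction 32 to 398 and 54 to 608. For XMU-MP1 in control siRNA, 2 members were higher with DESeq2 size factors, beside 754 of 18143 genes. The DESeq2 test gave 4 higher and 2 lower, beside 1304 and 1752 of 16978 genes. With only the compared groups fitted 6 were higher and 4 lower, beside 1943 and 2101 of 16081 genes. After the knockdown, 1 was lower with no filter or with DESeq2 size factors, beside 1307 of 27778 and 1313 of 18143 genes. The DESeq2 test gave 9 higher, beside 1665 of 17681 genes. With only the compared groups fitted 2 were higher and 1 lower, beside 322 and 544 of 16016 genes. For the interaction the DESeq2 test gave 4 higher and 2 lower, beside 857 and 926 of 16978 genes. With FPKM, at either pseudocount, 3 were higher in each knockdown comparison, 2 for XMU-MP1 after the knockdown and 1 for the interaction. At a pseudocount of 1 these stood beside 1844, 1340, 381 and 172 of 13917 genes. The cause was not tested. With the replicate block 2 members were higher for XMU-MP1 in control siRNA, 4 against 3 lower after the knockdown, and the ANKRD37 call there was lost. Beside these, 714 of 18143 genes were higher and 1412 lower in the same comparisons. FPKM moved the median of all genes by more than 0.1 in 4 of 5 comparisons, to -0.15 and -0.21 in the knockdown in DMSO and -0.31 and -0.46 for XMU-MP1 after the knockdown, where 381 genes were higher and 2794 lower at a pseudocount of 1 against 761 and 1437 by counts. In the knockdown in DMSO the split was 1844 to 3445 against 2929 to 2897. In siYT_XMU c depth limits low members, since 3 counts are 0.622 CPM there.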
